A study of Mus musculus with 6 samples.

Results

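The mitosis and spindle genes are 40 genes that drive or carry out chromosome segregation, and they were taken by symbol from a fixed list in the 43432 genes of each count file. All 40 were found, each with 1 identifier, and all 40 passed the filter on low counts, with between 20 and 2380 reads in any library. RNA was sequenced from mouse samples whose tissue label is skeletal muscle, in 3 libraries with control in their titles and 3 with FID, all tagged D3, and neither abbreviation is spelled out in the labels. The extraction protocol covers both Trizol extraction and primary FAPs and does not say which of them these libraries are. The series uses mice that lose Igf1 in fibro-adipogenic progenitors, or FAPs, which are connective tissue progenitors of muscle, to ask whether IGF-I made by these cells acts back on them. Per the labels' protocols, male and female mice were injected with tamoxifen on 5 days at 12 to 13 weeks of age, at 100 ug per g of body weight, and were left for 1 week or longer before experiments. The same protocol text stands on both groups, and no allele, Cre driver or control genotype is named in the labels. Nothing in the labels says that the libraries came from separate animals, and the p-values therefore reflect only library-to-library spread, which may be technical.

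Cells that divide build up cyclin A and cyclin B, which switch on the kinase Cdk1, and FOXM1 is the transcription factor that drives many genes of this phase. Chromosomes then attach to spindle microtubules through kinetochores, a checkpoint holds the cell until all are attached, and the anaphase-promoting complex ends mitosis by tagging cyclin B and securin for breakdown. Because these transcripts are made mainly in late S, G2 and M phase, their level in a tissue follows the share of cells in those phases, and in injured muscle FAPs, myoblasts, endothelial cells and macrophages can all divide. In RNA of mixed cells, fewer dividing cells and less of each transcript per dividing cell cannot be told apart.

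Gene counts summed to between 5201853 and 10093757 per library, with control 1 the shallowest. The labelled tissue was checked by 8 myofibre markers, which were low and together summed to 70.0 CPM in control 1 and 10.4 to 34.9 CPM in the other libraries. Acta1, skeletal muscle actin, was the highest, at 30.9 CPM in control 1, while Ckm, the muscle creatine kinase, reached at most 1.19 CPM and Mb, myoglobin, at most 1.56 CPM in any library (CPM is the count scaled to library size with TMM factors). Igf1, the gene the model deletes, measured 134, 60.4 and 106 CPM in control 1, 2 and 3 and 109, 107 and 81.6 CPM in FID 1, 2 and 3. The groups overlapped, and the log2 fold change of FID over control was -0.01 (SE 0.28), so no decrease was seen. The labels name no allele, so the part of the gene that is lost is not known. Its count over the whole gene therefore cannot serve as a check of the labels. Control and FID below mean the libraries labelled so.

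The mitotic genes leaned towards lower levels in the libraries labelled FID, but by little, and no single member passed the test across all genes. Of the 40 members, 38 had a log2 fold change (FID over control) below 0, where 52.2% of all genes tested did, and the median was -0.23 against -0.02 over all 12881 genes. With edgeR (quasi-likelihood test, Benjamini-Hochberg adjustment over all genes), 0 of 40 members passed at 0.05, as did 0% of all genes tested, and the members' adjusted p ranged from 0.141 to 0.991. An unadjusted p under 0.05 was reached by 3 members, Foxm1, Cenpe and Mki67, all lower in FID, where 9.21% of all genes tested reached it in that direction and 9.81% in the other, so this count is near the background. The same 3 were the members in which the 3 FID libraries lay below all 3 control libraries, and 12.3% of all genes tested showed that pattern. DESeq2 called 2 members, Foxm1 with an adjusted p of 0.0370 and Mki67 with 0.0412, against 2.27% of genes called lower by that tool. None of the members passed with limma-voom, where 0% of genes did. Adding sample weights to limma-voom gave 4 members (Foxm1, Cenpe, Mki67 and Cenpa), against 5.01% of genes called lower.

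**Figure D1:**
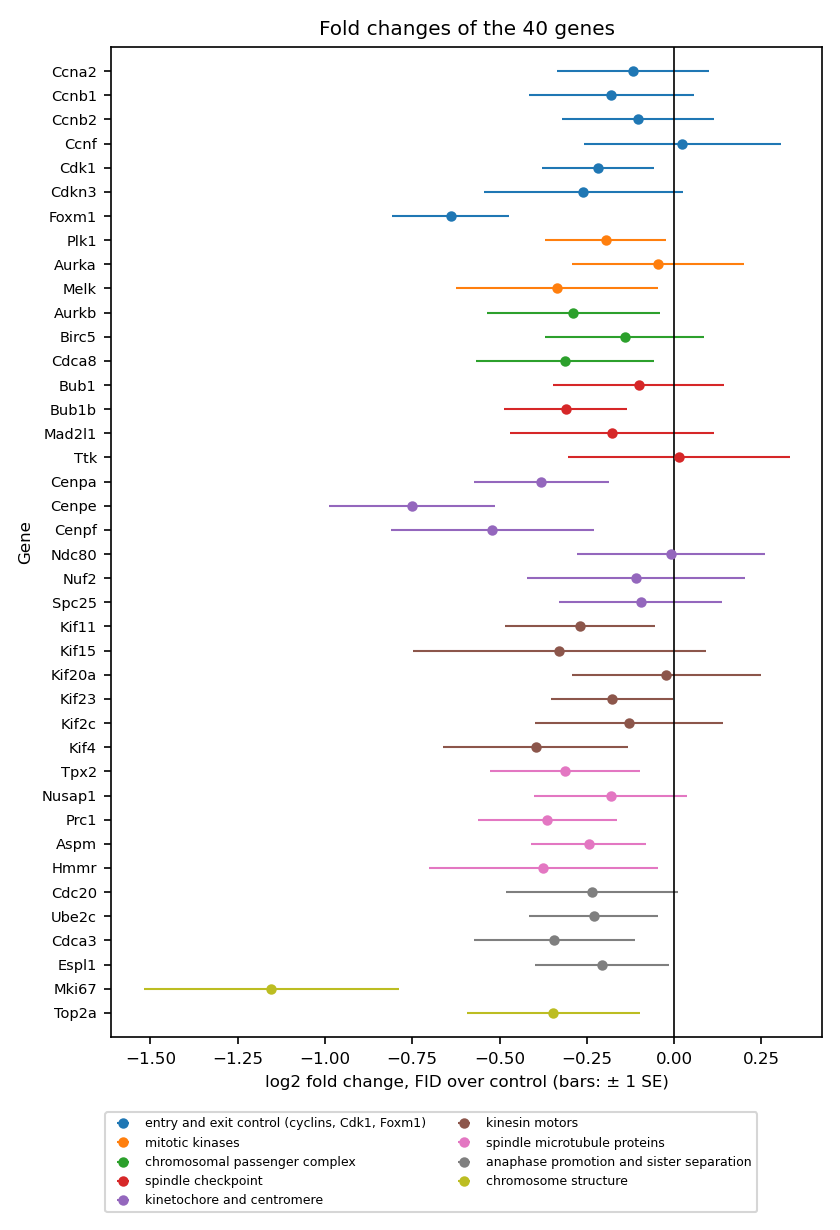
Log2 fold change of FID over control for each of the 40 genes (x axis), with bars of 1 standard error, coloured by role. 38 of the 40 points lie left of 0, with Mki67, Cenpe and Foxm1 farthest left.

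Libraries of the same group differed from each other in the whole set of genes, and this spread was as wide as the distance between the groups. Summed over the 40 members, control 1, 2 and 3 reached 1363, 1771 and 2057 CPM. FID 1, 2 and 3 reached 1747, 1162 and 1327 CPM. Control 1 and FID 2 and 3 were thus the low libraries and FID 1 lay close to control 2, so the groups overlapped (1731 ± 349 against 1412 ± 302, SD, n = 3 each). Within the control group, control 3 was highest in 35 members and control 1 lowest in 35, shares that were 33.5% and 39.4% over all genes tested. Within the FID group, FID 1 was highest in all 40 members and FID 2 lowest in 33, where 36.8% and 33.6% of all genes did so. FID 1 lay inside the range of the controls in 35 members, below it in Foxm1, Cenpe and Mki67 and above it in Ccnf and Ttk. FID 2 lay below all controls in 27 members and FID 3 in 15, against 28.8% and 28.7% of all genes tested.

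**Figure D2:**
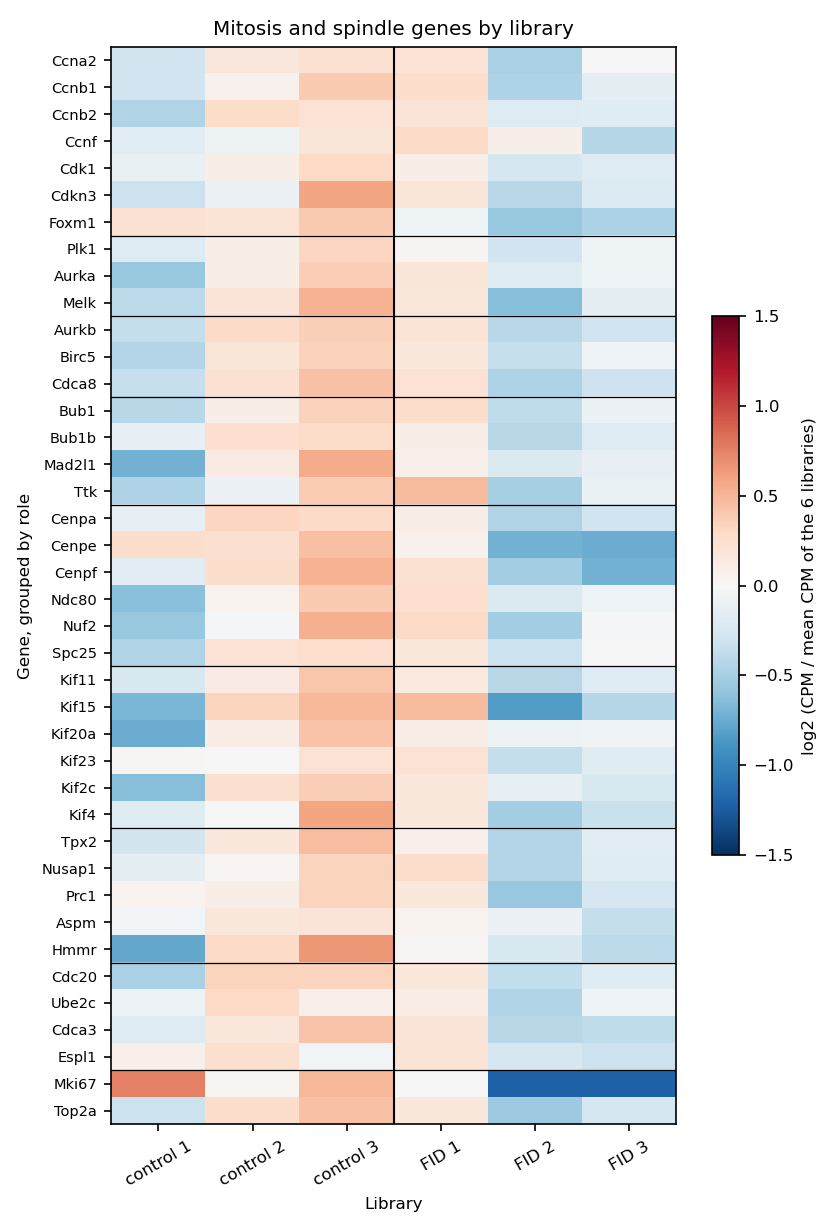
Level of each gene (rows, grouped by role) in each library (columns), as log2 of its CPM over its mean CPM in the 6 libraries. Red is above and blue below that mean: control 3 is red and FID 2 blue in nearly every row, control 1 is mostly blue and FID 1 is close to control 2. Mki67, Cenpe, Foxm1, Espl1, Prc1 and Kif23 are above their mean in control 1, Mki67 by the most.

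The genes share promoter features that the list itself did not use. Many mitotic genes are known to carry a cell cycle homology region, TTTGAA in its usual form, near a CCAAT box bound by NF-Y, and the repressor DREAM and the activators B-MYB and FOXM1 act through such promoters. RefSeq promoter windows (GRCm38.p6, 250 bases before to 50 after the start) were at hand for 35 of the 40 members. Foxm1, Ccna2, Aurkb, Kif20a and Tpx2 had no window, so the motifs were not looked for in them. TTTGAA was found on either strand in 27 of 35 (77.1%), against 17.9% of all 32851 windows, and CCAAT in 27 of 35, against 37.4%. Both were found in 24 of 35 (68.6%), against 6.95% of all windows. TTTAAA, a variant of the first motif, was in 10 of 35 against 13.2%, and GCGGGAA, an E2F-type motif, in 0 of 35 against 4.6%. Members with TTTGAA in the window had a median log2 fold change of -0.24 (27 genes) and those without it -0.18 (8 genes). The stretches below, from 200 bases before to 30 after the start, belong to Mki67, Cenpa, Prc1 and Cenpf. Among members with a window that holds both motifs they had the smallest unadjusted p by edgeR (0.0149, 0.0872, 0.107 and 0.114). Only that of Mki67 was under 0.05. Bub1b came next (0.120) but is not printed, because its TTTGAA, at position 41, lies outside the stretch. Capitals mark TTTGAA and CCAAT on either strand (read as TTCAAA and ATTGG on the other). The stretches are printed because these 2 motifs are what most of the genes share.
Mki67: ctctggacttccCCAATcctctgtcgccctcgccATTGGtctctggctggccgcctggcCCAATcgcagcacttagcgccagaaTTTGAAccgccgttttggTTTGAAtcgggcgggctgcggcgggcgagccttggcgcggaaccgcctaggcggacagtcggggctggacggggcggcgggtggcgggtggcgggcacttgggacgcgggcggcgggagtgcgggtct
Cenpa: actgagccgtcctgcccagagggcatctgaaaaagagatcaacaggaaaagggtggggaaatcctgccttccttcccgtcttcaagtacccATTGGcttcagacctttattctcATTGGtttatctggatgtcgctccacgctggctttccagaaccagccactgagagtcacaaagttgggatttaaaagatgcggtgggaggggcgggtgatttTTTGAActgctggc
Prc1: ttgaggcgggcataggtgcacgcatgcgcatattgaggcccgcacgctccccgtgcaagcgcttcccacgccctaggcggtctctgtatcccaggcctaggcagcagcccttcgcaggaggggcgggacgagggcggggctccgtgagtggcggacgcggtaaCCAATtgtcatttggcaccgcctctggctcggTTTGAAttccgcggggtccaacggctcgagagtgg
Cenpf: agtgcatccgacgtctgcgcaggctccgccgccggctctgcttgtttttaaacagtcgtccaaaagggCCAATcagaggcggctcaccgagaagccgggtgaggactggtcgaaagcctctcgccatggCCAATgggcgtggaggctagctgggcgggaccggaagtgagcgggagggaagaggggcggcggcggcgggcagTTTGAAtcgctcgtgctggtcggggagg
The Mki67 stretch (chr7:135716350-135716579, minus strand) holds 2 copies of TTTGAA, whose first bases lie 116 and 98 bases before the start, and 3 copies of CCAAT. In Cenpa (chr5:30666686-30666915, plus strand) TTTGAA begins at position 17 counted from the start, with 2 CCAAT boxes before it. Prc1 (chr7:80294251-80294480, plus strand) has TTTGAA 5 bases and CCAAT 37 bases before the start, and Cenpf (chr1:189688057-189688286, minus strand) has TTTGAA at position 3 and CCAAT boxes 132 and 71 bases before the start. A match is a description of letters and says nothing of binding.

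Mki67 and Top2a, the members that act on chromosome structure, had different profiles over the libraries. Mki67 (ENSMUSG00000031004, mm10 chr7:135689784-135716361, minus strand) encodes Ki-67, which coats mitotic chromosomes and is the common marker of cycling cells. It measured 121, 73.3 and 102 CPM in control 1, 2 and 3 and 71.9, 30.6 and 30.6 CPM in FID 1, 2 and 3. The groups did not overlap, but FID 1 lay only just under control 2. The fitted level was 2.22 times higher in control (a log2 fold change of -1.15, SE 0.37, adjusted p 0.179 by edgeR). Top2a encodes topoisomerase II alpha, which untangles sister chromatids. It measured 137, 205 and 232 CPM in control and 191, 117 and 144 CPM in FID, with overlap, and a log2 fold change of -0.35 (SE 0.25, adjusted p 0.476). Mki67 was the one member whose highest control library was control 1, the library in which Top2a and 34 other members were lowest among controls. Per length of merged exons, Mki67 stood at a ratio of 0.795, 0.321 and 0.391 to Top2a across control 1, 2 and 3. Across FID 1, 2 and 3 this ratio was 0.337, 0.234 and 0.190. The high ratio of control 1 stands apart, and the remaining control and FID values overlap, since FID 1 lies above control 2.

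**Figure D3:**
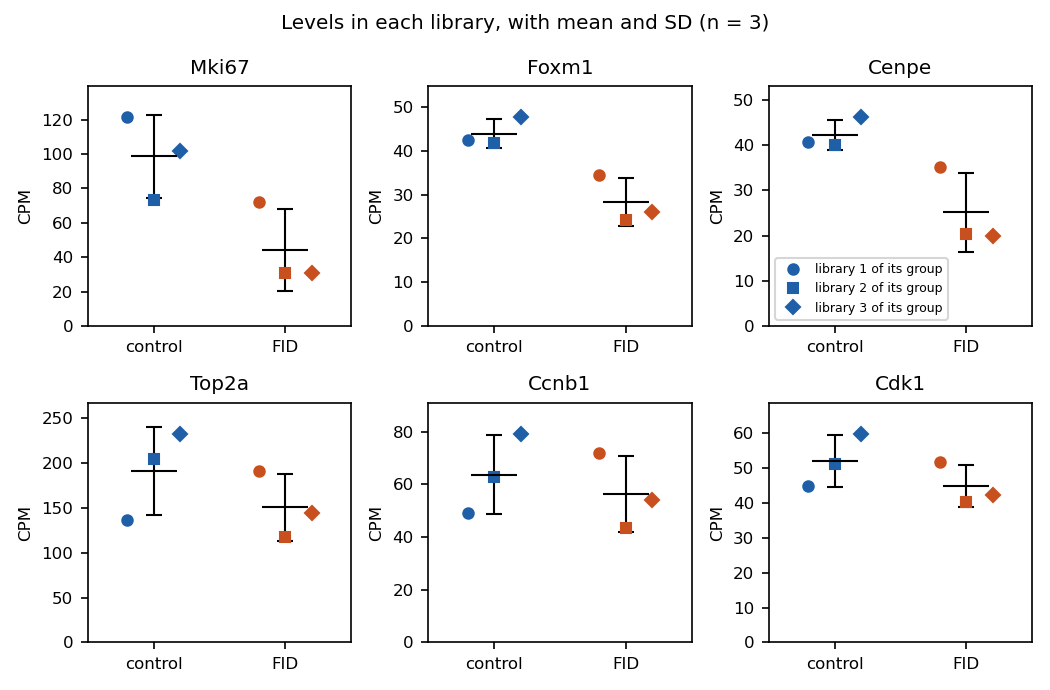
CPM of 6 genes in each library (points; circle, square and diamond are libraries 1, 2 and 3 of a group), with mean and SD (n = 3). Mki67, Foxm1 and Cenpe separate the groups, with FID 1 nearest to the controls, whereas Top2a, Ccnb1 and Cdk1 overlap.

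Among the genes that control entry into mitosis, only Foxm1 had groups that did not overlap, a pattern that 12.3% of all genes tested showed with FID below. Its difference from the cyclins and the kinase was not tested. Foxm1 (ENSMUSG00000001517, mm10 chr6:128362967-128376146, plus strand) measured 42.5, 41.7 and 47.6 CPM in control and 34.5, 24.3 and 25.9 CPM in FID 1, 2 and 3. All FID values lay below all control values, and the control libraries were close to each other, including control 1 (a log2 fold change of -0.64, SE 0.17, adjusted p 0.141). Cdk1, the kinase at the centre of mitotic entry, measured 44.9, 51.3 and 59.9 CPM in control and 51.7, 40.3 and 42.3 CPM in FID. Its log2 fold change was -0.22 (SE 0.16, adjusted p 0.488). Ccnb1, the cyclin B1 partner of Cdk1, measured 49.0, 62.8 and 79.2 CPM in control and 71.9, 43.3 and 54.0 CPM in FID, with FID 1 above 2 of the 3 controls. The log2 fold change of Ccnb1 was -0.18 (SE 0.24), and those of Ccnb2, the second cyclin B, and of Ccna2, cyclin A2, were -0.10 (SE 0.22) and -0.12 (SE 0.22). Cdkn3, a phosphatase that acts on cyclin-dependent kinases, had -0.26 (SE 0.29). Ccnf, the F-box protein cyclin F, had 0.02 (SE 0.28), with 3.96 to 5.17 CPM in control and 3.24 to 5.63 CPM in FID. Its RPKM (CPM per kb of merged exons) was the lowest of the members, at 0.579. Ccnb2 had the highest RPKM of the members, at 37.3 over the 6 libraries, followed by Cdc20 at 28.0 and Top2a at 19.0. Merged exons join all annotated exons of a gene and can exceed the length of the transcripts present. This order is therefore not a ranking of transcript abundance.

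The mitotic kinases and the chromosomal passenger complex, which corrects wrong attachments at the centromere, overlapped between the groups in every member. Plk1, polo-like kinase 1, measured 31.2, 38.1 and 44.9 CPM in control and 36.8, 29.1 and 34.1 CPM in FID (a log2 fold change of -0.20, SE 0.17). Aurka, the spindle-pole kinase Aurora A, measured 15.03, 23.9 and 29.2 CPM in control and 25.5, 19.7 and 21.4 CPM in FID, and its log2 fold change was -0.05 (SE 0.25). Aurkb, the catalytic subunit of the passenger complex, measured 19.4, 30.6 and 32.3 CPM in control and 28.8, 18.7 and 20.3 CPM in FID. In each of these kinases the lowest control library was control 1 and the highest FID library was FID 1. The log2 fold change of Aurkb was -0.29 (SE 0.25), that of Cdca8 -0.31 (SE 0.25) and that of Birc5 -0.14 (SE 0.23). Cdca8, which encodes borealin, measured 25.1, 37.5 and 43.4 CPM in control and 37.1, 23.0 and 25.7 CPM in FID. Birc5, which encodes survivin, measured 30.5, 46.8 and 52.5 CPM in control and 46.2, 32.4 and 39.6 CPM in FID. In both genes FID 1 lay between control 1 and control 3. Melk, a kinase of dividing progenitor cells, had -0.34 (SE 0.29), with 17.998, 27.5 and 34.8 CPM in control and 27.0, 15.3 and 21.7 CPM in FID. Adjusted p ranged from 0.558 to 0.939 over the kinases and from 0.534 to 0.770 over the passenger complex.

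Spindle checkpoint genes, which delay anaphase until every chromosome is attached, gave the same picture. Bub1b, which encodes BubR1, measured 52.4, 68.2 and 69.2 CPM in control and 60.7, 42.7 and 50.02 CPM in FID, and had the smallest p of the group (a log2 fold change of -0.31, SE 0.18, adjusted p 0.372). Ttk, the checkpoint kinase MPS1, measured 8.90, 11.7 and 16.3 CPM in control and 17.5, 8.61 and 11.6 CPM in FID. Its highest value was in FID 1 and its lowest in FID 2, and the log2 fold change was 0.01 (SE 0.32). Bub1 and Mad2l1, which encode a kinetochore kinase and the inhibitor Mad2, had -0.10 (SE 0.24) and -0.18 (SE 0.29). Mad2l1 measured 25.3, 45.4 and 61.3 CPM in control and 43.8, 35.6 and 38.1 CPM in FID, with all FID values inside the wide control range.

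All 6 kinetochore and centromere genes had log2 fold changes below 0, and Cenpe was the one whose groups did not overlap. Cenpe (ENSMUSG00000045328, mm10 chr3:135212537-135273611, plus strand), a kinesin that moves chromosomes to the spindle equator, measured 40.7, 40.04 and 46.2 CPM in control and 35.3, 20.4 and 19.9 CPM in FID. The control values were close together and FID 1 lay between them and the other FID libraries (a log2 fold change of -0.75, SE 0.24, adjusted p 0.179). Cenpf, a large protein of the outer kinetochore, measured 24.1, 32.7 and 39.3 CPM in control and 32.1, 18.8 and 16.5 CPM in FID (a log2 fold change of -0.52, SE 0.29, adjusted p 0.364). Cenpa, the histone H3 variant that marks centromeres, measured 37.2, 50.8 and 49.4 CPM in control and 43.4, 29.6 and 32.8 CPM in FID (a log2 fold change of -0.38, SE 0.19). In both genes FID 2 and 3 lay under every control library and FID 1 did not. Ndc80, Nuf2 and Spc25 encode subunits of the NDC80 complex, which grips the microtubule, and had log2 fold changes of -0.01 (SE 0.27), -0.11 (SE 0.31) and -0.10 (SE 0.23). Ndc80 measured 12.9, 20.9 and 26.6 CPM in control and 24.1, 17.2 and 19.2 CPM in FID, so that the FID values sat inside the control range. Per length, Cenpe stood at a ratio of 2.39, 1.44 and 1.31 to Ndc80 across control 1, 2 and 3. Across FID 1, 2 and 3 it was 1.10, 0.891 and 0.779, without overlap. This pair was chosen after its values were seen and the difference was not tested.

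All 6 kinesin motor genes and all 5 genes of other spindle microtubule proteins had log2 fold changes below 0, and none separated the groups. Kif4, a chromosome-arm motor encoded on the X chromosome, measured 17.8, 20.4 and 30.8 CPM in control and 22.6, 14.1 and 16.0 CPM in FID (a log2 fold change of -0.40, SE 0.27, adjusted p 0.444). Kif20a, a motor of cytokinesis, measured 25.9, 46.9 and 58.7 CPM in control and 46.9, 41.5 and 42.0 CPM in FID. Its FID libraries all lay inside the wide control range, and its log2 fold change was -0.02 (SE 0.27). Kif11, the motor that pushes spindle poles apart, and Kif15, which can share that work, had -0.27 (SE 0.21) and -0.33 (SE 0.42). Kif23, a motor of the midzone, and Kif2c, which takes microtubule ends apart, had -0.18 (SE 0.17) and -0.13 (SE 0.27). Prc1, which bundles midzone microtubules, measured 69.2, 71.8 and 84.5 CPM in control and 74.7, 44.8 and 55.9 CPM in FID (a log2 fold change of -0.36, SE 0.20, adjusted p 0.355). Nusap1, which stabilises spindle microtubules, measured 24.3, 27.7 and 34.1 CPM in control and 32.5, 19.8 and 23.9 CPM in FID (a log2 fold change of -0.18, SE 0.22). FID 1 exceeded 2 of the 3 controls in both of these genes. Tpx2, the activator of Aurora A, Aspm, a spindle-pole protein, and Hmmr, a microtubule-binding hyaluronan receptor, had -0.31 (SE 0.22), -0.24 (SE 0.17) and -0.37 (SE 0.33).

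Genes grouped here under anaphase and sister chromatid separation had log2 fold changes between -0.34 and -0.21. The lowest was that of Cdca3, which acts at mitotic entry and not in anaphase. Cdca3, a trigger of mitotic entry, measured 29.3, 37.9 and 45.3 CPM in control and 38.4, 25.0 and 25.6 CPM in FID (a log2 fold change of -0.34, SE 0.23, adjusted p 0.445). Cdc20, the activator of the anaphase-promoting complex, measured 37.2, 65.7 and 66.2 CPM in control and 58.1, 40.3 and 45.8 CPM in FID (a log2 fold change of -0.24, SE 0.25, adjusted p 0.638). In each gene control 1 was below FID 1. Ube2c, the ubiquitin-conjugating enzyme of that complex, and Espl1, the protease separase that cuts cohesin, had -0.23 (SE 0.19) and -0.21 (SE 0.19).

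The members' summary depended on which libraries were in the fit. The number of members with a log2 fold change below 0 was 26 without control 3 (48.6% of all genes tested in that fit) and 32 without FID 2 (50.6%). It was 40 without control 1 (51.4%) and 40 without FID 1 (51.1%). The median of the members was -0.09 without control 3, -0.12 without FID 2, -0.40 without control 1 and -0.38 without FID 1. Whichever library was left out, 25 members stayed below 0, and the other 15 took either sign. Without FID 1, 2 members passed edgeR's adjusted test, Mki67 at -1.68 (SE 0.24) and Cenpe at -1.06 (SE 0.16), both with an adjusted p of 0.0343, where 0.578% of genes were called lower. A fit without control 1 and FID 1 together, added after the data were seen, called 12 members, where 2.73% of genes were called lower, but it leaves out the library of each group that brings the groups closest in most members. Without FID 2 the log2 fold change of Mki67 was -0.94, that of Cenpe -0.62 and that of Foxm1 -0.54.

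**Figure D4:**
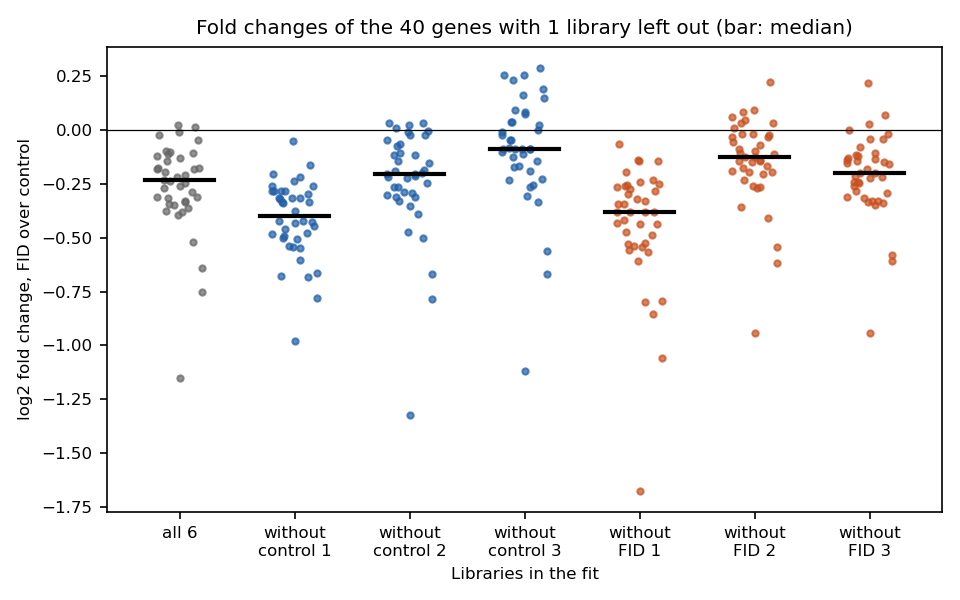
Log2 fold change of FID over control of each of the 40 genes (points) with all 6 libraries and with 1 library left out (x axis); the bar is the median. The bar lies nearest to 0 without control 3 (-0.09) and farthest from it without control 1 (-0.40).

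Genes with longer merged exons had lower fold changes, in the members and in the data as a whole. Over the 40 members, Spearman's rho between log2 fold change and merged exon length was -0.34, and over 12840 tested genes with a length it was -0.26. The members' rho was -0.20 without FID 3 and -0.23 without control 1. These correlations are across genes of the same 6 libraries, which are not independent, and describe them only. The 10 longest members (7901 to 15433 bases), among them Mki67, Cenpe, Cenpf and Top2a, had a median log2 fold change of -0.34, and the 10 shortest (1531 to 3188 bases) -0.23. Without FID 2 the 10 longest had -0.20 and the 10 shortest -0.11, and without control 3 they had -0.22 and -0.07. Without FID 1 they had -0.55 and -0.36, and without control 1 -0.49 and -0.37. In all genes tested the longest 20% had a median of -0.18 and the shortest 20% 0.12. These classes were not matched in length to the 10 longest and 10 shortest members, so they cannot place the members against genes of equal length. Of the 6 libraries, control 1 had the longest members highest relative to the shortest, by 0.38 on the log2 scale, and FID 3 the lowest, at -0.18. Per the labels' protocols RNA integrity numbers were only required to exceed 5.6, and no value per library was used here. Merged exon length is not the length of the transcripts present, and the part of length in the members' differences was not tested.

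**Figure D5:**
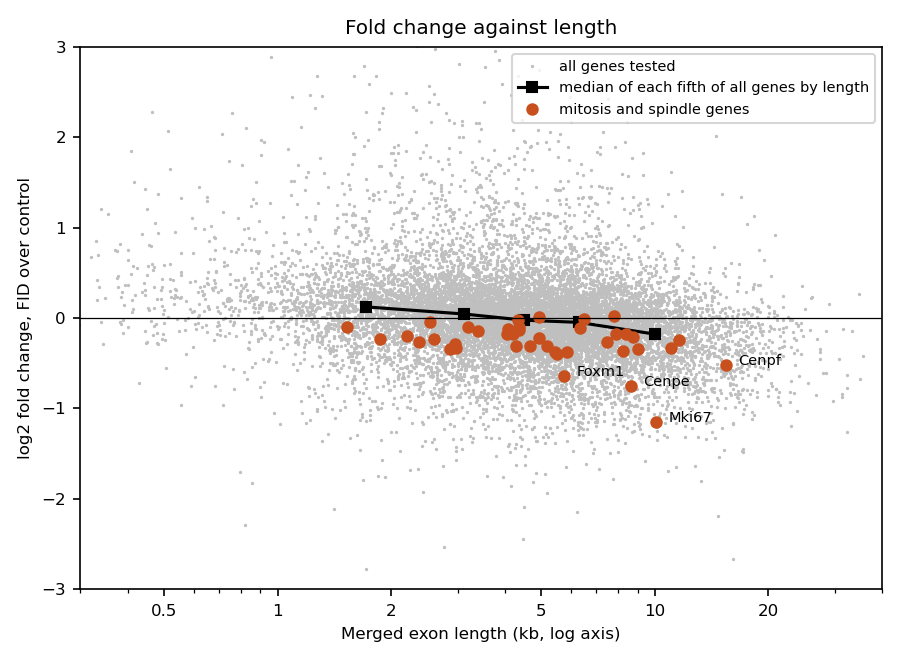
Log2 fold change of FID over control against merged exon length (log axis) for all genes tested (grey) and the 40 mitosis and spindle genes (orange); squares are medians of 5 equal length classes of all genes, and genes beyond the axes are not drawn. The squares slope downward, from 0.12 to -0.18, and Mki67, Cenpe and Cenpf are among the longest and lowest of the 40 genes.

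Other genes of mitosis and of the cell cycle, 192 in 7 lists, were read from the same fit, and 0 passed the adjusted test. Of 81 other mitosis genes, 65 had a log2 fold change below 0, with a median of -0.19, and an unadjusted p under 0.05 was reached by 3 lower and 1 higher gene, where 9.21% and 9.81% of all genes did. Stil, needed to duplicate centrioles, measured 7.91, 8.01 and 8.89 CPM in control and 6.65, 4.30 and 5.08 CPM in FID (a log2 fold change of -0.63, SE 0.23, adjusted p 0.205). Spdl1, which brings dynein to kinetochores, had a value above 0, with 10.3, 18.3 and 16.6 CPM in control and 21.974, 22.4 and 21.0 CPM in FID (a log2 fold change of 0.51, SE 0.22). The lowest value of this list was that of Depdc1b at -0.88 (SE 0.37), and Cit, the citron kinase of cytokinesis, had -0.56 (SE 0.24) and is named after its values were seen. Among condensin and cohesin genes, 15 of 18 were below 0 (median -0.21) and 3 reached the unadjusted threshold. These were Nipbl, the cohesin loader, at -0.44 (SE 0.15), Ncapd2, a condensin I subunit, at -0.56 (SE 0.23), and the cohesin regulator Pds5a, named after its values were seen, at -0.33 (SE 0.13). Ncapg2, of condensin II, had the highest value, 0.16 (SE 0.13).

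The other lists hold genes that act before mitosis or on its regulators. DNA replication genes had a median of -0.18, with 28 of 34 tested below 0 and 0 at an unadjusted p under 0.05. The histone chaperone gene Chaf1a had -0.45 (SE 0.21), the checkpoint mediator gene Clspn -0.53 (SE 0.32) and the replication gene Gins3 0.76 (SE 0.42). Cyclins, kinases and E2F genes of G1 and S had a median of -0.13 over 15 genes. E2f7, an atypical repressor of the E2F family, measured 19.6, 12.9 and 15.9 CPM in control and 11.8, 7.35 and 7.45 CPM in FID (a log2 fold change of -0.85, SE 0.26, adjusted p 0.169), whereas Cdk6 had 0.39 (SE 0.31). Subunits and regulators of the anaphase-promoting complex had a median of -0.06, with 10 of 17 below 0. Anapc10, a subunit that helps to bind substrates, measured 12.3, 15.1 and 14.5 CPM in control and 16.8, 21.0 and 22.6 CPM in FID (a log2 fold change of 0.52, SE 0.17, adjusted p 0.186), and Fzr1, the late activator Cdh1, had -0.27 (SE 0.15). Regulators of mitotic transcription, the DREAM and NF-Y subunits among them, had a median of -0.03, with Tfdp2, an E2F partner, at -0.54 (SE 0.21) and Lin37 at 0.35 (SE 0.24). The list of kinase inhibitors also holds p53 targets that are not kinase inhibitors, and 7 of its 9 genes were tested (median -0.15). Ccng1, a target of p53, measured 78.9, 108 and 125 CPM in control and 126, 177 and 175 CPM in FID (a log2 fold change of 0.62, SE 0.21, adjusted p 0.195), and Btg2, another p53 target, had -0.44 (SE 0.29).

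Markers of several cell types differed with the groups or with single libraries. Summed over 12 macrophage markers, CPM was 3211 to 5410 in control and 6521 to 9476 in FID, with 12 of 12 above 0 in log2 fold change. Lyz2 and Ctss were the largest parts of each sum. Adgre1, Cd68, Fcgr1, Itgam and Ctss exceeded every control in all FID libraries, a pattern that 1672 of 12881 genes tested showed. By contrast, Csf1r, Mertk, Cd14, Lyz2, C1qa, C1qb and C1qc overlapped between the groups. The 12 FAP and fibroblast markers summed to 60841 to 68695 CPM in control and 32870 to 45707 in FID, with 10 of 12 below 0. The collagen genes Col1a1, Col1a2 and Col3a1 made up most of each sum, so it mainly reads collagen transcripts. Cxcl14, Gsn and Mfap5 were also lower in every FID library than in any control, as were 12.3% of all genes tested. Pdgfra, Dcn, Dpt, Pi16 and Dpp4 overlapped between the groups. Ly6a reached 2327 and 1890 CPM in FID 2 and 3, against 434 to 662 CPM in control. The 10 interferon response genes summed to 299 to 991 CPM in control, 851 in FID 1, 6073 in FID 2 and 3420 in FID 3. Monocyte markers (5 genes) summed to 195 to 363 CPM in control, 407 in FID 1, 1818 in FID 2 and 1346 in FID 3. The FID libraries with the lowest mitotic levels, FID 2 and 3, were thus those with the highest interferon and monocyte sums. Ly6c2 (713 and 552 CPM) and Plac8 (764 and 460 CPM) made up most of the monocyte sum in FID 2 and 3. Ccr2 and F10 exceeded every control in all FID libraries, as did 1672 of 12881 genes tested. Chil3 (128 and 92.2 CPM in FID 2 and 3) lay inside its control range, 75.4 to 146 CPM. Control 1, the lowest control library in most members, had the highest sum for 9 endothelial markers (4357 CPM against 1183 to 1958 in the other libraries). It also had the highest sums for 6 pericyte and smooth muscle markers (1797 against 602 to 778) and 5 tenocyte markers (2077 against 347 to 1045). The 4 adipocyte markers summed to 762 CPM in control 1 against 317 to 405 elsewhere, but Fabp4 alone was 759 CPM of it. Adipoq and Plin1 reached at most 0.593 and 2.37 CPM in any library, and Cidec was at 0 in all, so this sum mainly reads Fabp4. The 8 satellite cell and myoblast markers summed to 273 to 423 CPM in control and 281 to 333 in FID, but Vcam1 made up most of each sum. Pax7, Myog and Cdh15 were highest in control 1, at 5.34, 16.6 and 17.0 CPM, against at most 0.945, 11.9 and 7.32 CPM in the other libraries. Myf5 and Des were also highest in control 1, and Myod1 and Chrna1 in FID 1. The 8 myofibre markers summed to 10.4 to 70.0 CPM in control and 18.5 to 34.9 CPM in FID. The sums of neutrophil markers (6 genes) were 36.8 to 42.1 CPM in control and 45.5 to 74.8 in FID, and those of Schwann cell markers (4 genes) 47.7 to 55.4 and 44.8 to 65.5. Markers of T and NK cells (7 genes, Cd3e at 0 in all libraries) summed to at most 13.3 CPM, of B cells (5 genes) to at most 4.93 CPM and of dendritic cells (6 genes) to at most 22.7 CPM in any library. The part of cell composition in the members' differences was not tested.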

How the data were processed

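Per the labels, total RNA of 6 samples (1000 ng) went into libraries made with a directional kit. The deposited values are raw read counts for each Ensembl gene. The submitters' processing notes name cutadapt, STAR, HTSeq, SAMtools, Bowtie2 2.5.4 and DESeq2 and the mm10 build, without saying what each was used for. Annotation release and strand setting: not given in the sources used here. Of the 40 members, 8 share exon bases with a gene on the opposite strand and 3 with one on the same strand, so their reads may not be fully separated. Entries that name no gene (9.60% to 10.9% of each file) were left out.

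Symbols matched 97.8% of genes, and positions and merged exon lengths came from GENCODE M21 of the same build. Counts were fitted with edgeR 4.0.16 (filterByExpr, minimum count 10 and total 15, TMM factors, quasi-likelihood test, group as the only term) over 12881 genes, with Benjamini-Hochberg adjustment at 0.05; the code was tested on simulated data. The SE is the absolute log2 fold change over the square root of F. CPM and RPKM are TMM-scaled. A count of 0 allows 3 counts, 0.297 to 0.577 CPM before TMM scaling, counting error only. Alternatives were DESeq2 1.42.0, limma 3.58.1 (voom, with and without sample weights), other scalings and filters, a replicate term and each library left out. Values in every library are given for 7 genes set by role and, in each of 9 role groups, for the members with the smallest and largest p, and from each further list for the smallest p and the extreme fold changes. Cenpa, Cenpf and Mad2l1, also given by library, and Cit and Pds5a were added after their values were seen. The members and lists were chosen with earlier results of these data known.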

Additional observations from a re-analysis of the deposited data

How the results depend on the processing

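Over all genes, edgeR called 0 genes with all libraries, 269 without a filter on low counts, 3 without control 1 and 359 without FID 1. DESeq2 called 764 genes and limma-voom with sample weights 1531. Of the 40 members DESeq2 called 2, limma-voom with sample weights 4 and edgeR without FID 1 2, and 0 in the other planned fits, and the range with 1 library left out was 0 to 2 for the members and 0 to 359 for all genes. The members' median ranged from -0.40 to -0.09 with 1 library left out and from -0.36 to -0.21 over the other planned fits. A fit without control 1 and FID 1 together was added after the data were seen. It called 12 members, against 2.73% of genes called lower, and 1168 genes in all, and the median log2 fold change of the 40 members was -0.53, but it leaves out the lowest control and the highest FID library for most members, so the choice itself widens the difference. Apart from that, the cause of these changes was not tested. In that fit Ttk had -0.46 and Ccnf -0.21, against 0.01 and 0.02 with all libraries.

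With the replicate number as a block, 0 members and 0 genes were called and the median was -0.23. The signs of 4 members with log2 fold changes near 0 turned under it: Ccnf -0.0040, Ttk -0.016, Kif20a 0.046 and Ndc80 0.026. Samples of the same number correlated in their deviations from the group means at 0.012, -0.30 and 0.32 over 12881 genes, and 1 of 3 control libraries and 1 of 3 FID libraries correlated best with its own number, so the numbers were not taken as pairs. Signs also turned under limma-voom (Ccnf -0.027, Ttk -0.056, Kif20a 0.0096), limma-voom with sample weights (Ccnf -0.12, Ttk -0.088), scaling by library size only (Ndc80 0.0071) and no filter (Ndc80 0.011). With 1 library left out, 15 members took either sign: Aurka -0.26 to 0.19, Birc5 -0.34 to 0.037, Bub1 -0.28 to 0.094, Ccna2 -0.27 to 0.061, Ccnb1 -0.38 to 0.023, Ccnb2 -0.30 to 0.032, Ccnf -0.14 to 0.22, Cdkn3 -0.44 to 0.084, Kif20a -0.28 to 0.26, Kif2c -0.37 to 0.077, Mad2l1 -0.45 to 0.15, Ndc80 -0.24 to 0.26, Nuf2 -0.34 to 0.23, Spc25 -0.28 to 0.040 and Ttk -0.28 to 0.29. Scaling by RLE size factors and a minimum count of 30 turned no sign and made no call. The members' median level varied between libraries of a group with an SD of 0.32 (log2, pooled over both groups), which is more than the size of their median log2 fold change, -0.23.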
